A study of Homo sapiens with 54 samples.

Results

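The FOS family holds 4 genes, FOS, FOSB, FOSL1 and FOSL2, which were taken by name from the 60676 genes listed in each library and followed through all 18 groups of the series. Proteins of this family are basic leucine zipper transcription factors. They do not bind DNA as pairs of their own kind but join a JUN family protein to form AP-1, and the make-up of the pair sets how strongly a target promoter or enhancer is used. FOS and FOSB are immediate early genes, whose transcripts appear within minutes of a stimulus without new protein synthesis and are quickly degraded, whereas FOSL1 and FOSL2 lack the strong activation domain of FOS and are usually induced later and kept for longer. In the striatum, FOS is a standard marker of neurons activated by dopamine or psychostimulants, and FOSB also gives rise to the truncated, long-lived form ΔFosB after repeated exposure. The deposited values are per gene, so full-length FOSB and ΔFosB could not be told apart.

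RNA-seq was performed on medium spiny neuron-like (hMSN-like) cells differentiated from the human embryonic stem cell line H9, and 53 libraries from 54 labelled samples were analysed in 4 experiments. In the first pair of experiments, cultures received 1 mM or 1 µM dopamine for 1 h, either a single time (Acute) or daily for 5 days (Chronic), and RNA was extracted at 1 h or 24 h. Whether the 1 h point counts from the start or the end of the dose is not clear from the sources used here. Each of these experiments had its own PBS controls, and every group held 3 libraries. In the time course, 1 mM dopamine was given daily for 2, 3, 4 or 5 days, with extraction at 1 h and an Ascorbic acid control, the solvent of the dopamine (3 libraries a group, 2 for 5 Day). In the agonist experiment, cultures were given SKF82958 (50 µM), an agonist of D1-like receptors, Quinpirole (50 µM), an agonist of D2-like receptors, or Water (3 libraries a group). Acute and agonist cultures were collected on an earlier day of differentiation than Chronic and time course cultures, so that repeated dosing and culture age cannot be told apart in a direct comparison of Chronic with Acute. The day of the PBS cultures was not given in the sources used here, and the PBS groups do not control for ascorbic acid. All libraries came from 1 cell line and from mixed differentiated cultures rather than sorted neurons. The labels do not say whether replicates were separate differentiations, so that p-values measure the spread between these libraries, which may be technical.

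FOS (ENSG00000170345) lies at chr14:75278826-75282230 on the plus strand of GRCh38, FOSB (ENSG00000125740) at chr19:45467995-45475179 on the plus strand, FOSL1 (ENSG00000175592) at chr11:65892049-65900573 on the minus strand and FOSL2 (ENSG00000075426) at chr2:28392448-28417317 on the plus strand. FOSB overlaps ERCC1, a DNA repair gene on the opposite strand, and FOSL2 overlaps AC104695.2 on the opposite and AC104695.4 on the same strand. Whether reads were counted by strand was not given in the sources used here, so reads in these overlaps could not be assigned to 1 gene with certainty. Because FOS, FOSB and FOSL2 moved together 1 h after dopamine, their promoter sequences are shown, from RefSeq on GRCh38.p14 and up to the first exon base (3 of the 4 genes were matched in the promoter table, and FOSL1 was not). Capitals mark TGACGT, which is the first part of the cyclic AMP response element TGACGTCA, and the TATA box letters TATAAA, searched on both strands.
FOS chr14:75278578-75278825, plus strand: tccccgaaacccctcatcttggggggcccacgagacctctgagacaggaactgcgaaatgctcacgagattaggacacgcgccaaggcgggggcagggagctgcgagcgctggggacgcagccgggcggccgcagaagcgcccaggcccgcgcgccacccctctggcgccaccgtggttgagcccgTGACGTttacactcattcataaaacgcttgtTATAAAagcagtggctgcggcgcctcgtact
FOSB chr19:45467746-45467994, plus strand: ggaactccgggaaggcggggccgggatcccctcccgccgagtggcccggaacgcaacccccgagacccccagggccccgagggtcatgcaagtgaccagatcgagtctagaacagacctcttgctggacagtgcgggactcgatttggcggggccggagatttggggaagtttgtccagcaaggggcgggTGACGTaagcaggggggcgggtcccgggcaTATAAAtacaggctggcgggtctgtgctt
FOSL2 chr2:28392608-28392801, plus strand: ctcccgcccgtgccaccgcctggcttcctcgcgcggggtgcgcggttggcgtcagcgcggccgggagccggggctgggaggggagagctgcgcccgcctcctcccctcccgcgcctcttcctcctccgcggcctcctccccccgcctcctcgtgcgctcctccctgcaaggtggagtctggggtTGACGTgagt
All 250 bases before the RefSeq start of each gene were searched, of which the printed FOSL2 sequence holds the first 194, since an annotated exon begins there. TGACGT began 64 bases before the start of FOS, 60 before that of FOSB and 66 before that of FOSL2, on the strand of the gene in each case. TATAAA began 33 bases before the start of FOS and 30 before that of FOSB, and was not among the 250 bases searched for FOSL2, whose printed sequence had the highest share of G and C (76.3%, against 64.5% for FOS and 65.5% for FOSB). Of 35116 promoter windows of 250 bases in the same table, 7.10% held TGACGT and 10.7% held TATAAA. Neither the complete TGACGTCA (1.65% of windows) nor the AP-1 motif TGANTCA (6.57%) was in any of the 3 searched windows. The printed FOSB sequence lies in an intron of ERCC1, and that of FOSL2 inside the FOSL2 gene, in an intron of a transcript that starts earlier. These matches describe letters and were chosen after the sequences had been read.

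Total reads on genes ranged from 4121674 to 33715972 per library, with a median of 13512153. Markers of the labelled cell type were present, with 11 of 12 striatal projection neuron markers at a median of at least 1 TPM, a transcript level corrected for transcript length and depth. The exception was PDYN, prodynorphin, at a median of 0.205 TPM and at 0 in 14 libraries. The cultures were mixed, since 4 of 4 astrocyte, 4 of 4 progenitor and 6 of 6 fibroblast markers also reached 1 TPM, whereas 0 of 3 microglial and 0 of 2 endothelial markers did. In these bulk samples, fewer cells of a type and less RNA per cell cannot be told apart. Quinpirole replicate 1 stood apart from all other libraries. It had the fewest reads, 96.7% of them in introns, and rested on 3 reads for FOS, 3 for FOSB and 0 exon reads for FOSL1. 1 mM Acute 24 h replicate 1 also stood apart, with a summed level of 966 TPM over the neuron markers against 1676 and 1491 in the other libraries of its group. Tests on all reads and group orders of the 4 genes that rest on either library are given with and without it. Fits of intron reads were made with all libraries only.

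Across the 52 libraries other than Quinpirole replicate 1, FOS ranged from 3.27 to 399 TPM (122-fold, median 57.5), FOSB from 0.139 to 76.5 TPM (551-fold, median 2.30), FOSL1 from 0.176 to 10.3 TPM (58.4-fold, median 2.98) and FOSL2 from 2.18 to 74.1 TPM (34.0-fold, median 22.2). FOS and FOSL2 were therefore the abundant members, FOSB was low in the PBS and Ascorbic acid controls, and FOSL1 was low throughout. 4 of these libraries had 3 or fewer exon reads for FOSB and 2 had 3 or fewer for FOSL1, so the lower ends of those ranges and their folds rest on few reads. For FOS, the groups stood in the order Quinpirole (mean 393 TPM), SKF82958 (353), 1 mM Acute 1 h (243), Water (238), 1 mM Chronic 1 h (163) and 1 µM Acute 1 h (84.9), followed by the 4 time course groups (57.5 to 68.5), 1 µM Chronic 1 h (31.2) and the controls and 24 h groups, down to 1 µM Acute 24 h (3.44). The libraries of 9 of the 17 neighbouring pairs in this order did not overlap. They overlapped between 1 mM Acute 1 h and Water, from 1 µM Acute 1 h through the time course groups, and from 1 µM Chronic 1 h to 1 mM Chronic 24 h. For FOSB, SKF82958 (67.6 TPM), Quinpirole (62.4) and 1 mM Acute 1 h (61.9) overlapped at the top, Water (25.0) stood apart from them and from 1 µM Acute 1 h (13.4) below it, and every further neighbour overlapped. FOSL2 was highest at 1 mM Acute 1 h (65.1 TPM), apart from the next group, 1 mM Chronic 1 h (47.4), and 3 of its 17 neighbouring pairs did not overlap. FOSL1 ran from 8.65 TPM at 1 µM Chronic 1 h and 6.64 TPM at 1 mM Chronic 1 h to 0.794 TPM at 1 mM PBS, with overlap at every step when 1 mM Acute 24 h replicate 1 was kept. With Quinpirole replicate 1 included, 7, 1, 0 and 3 neighbouring pairs were apart for FOS, FOSB, FOSL1 and FOSL2, and with both libraries that stood apart left out, 9, 3, 2 and 4 were. In the latter order 1 mM Acute 24 h moved down, to 12.7 TPM for FOS and 2.12 TPM for FOSL1, and 1 mM Chronic 1 h lay apart from the next group for FOSL1 (1 mM Acute 1 h, 4.11 TPM) and for FOSL2 (SKF82958, 40.6 TPM).

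**Figure D1:**
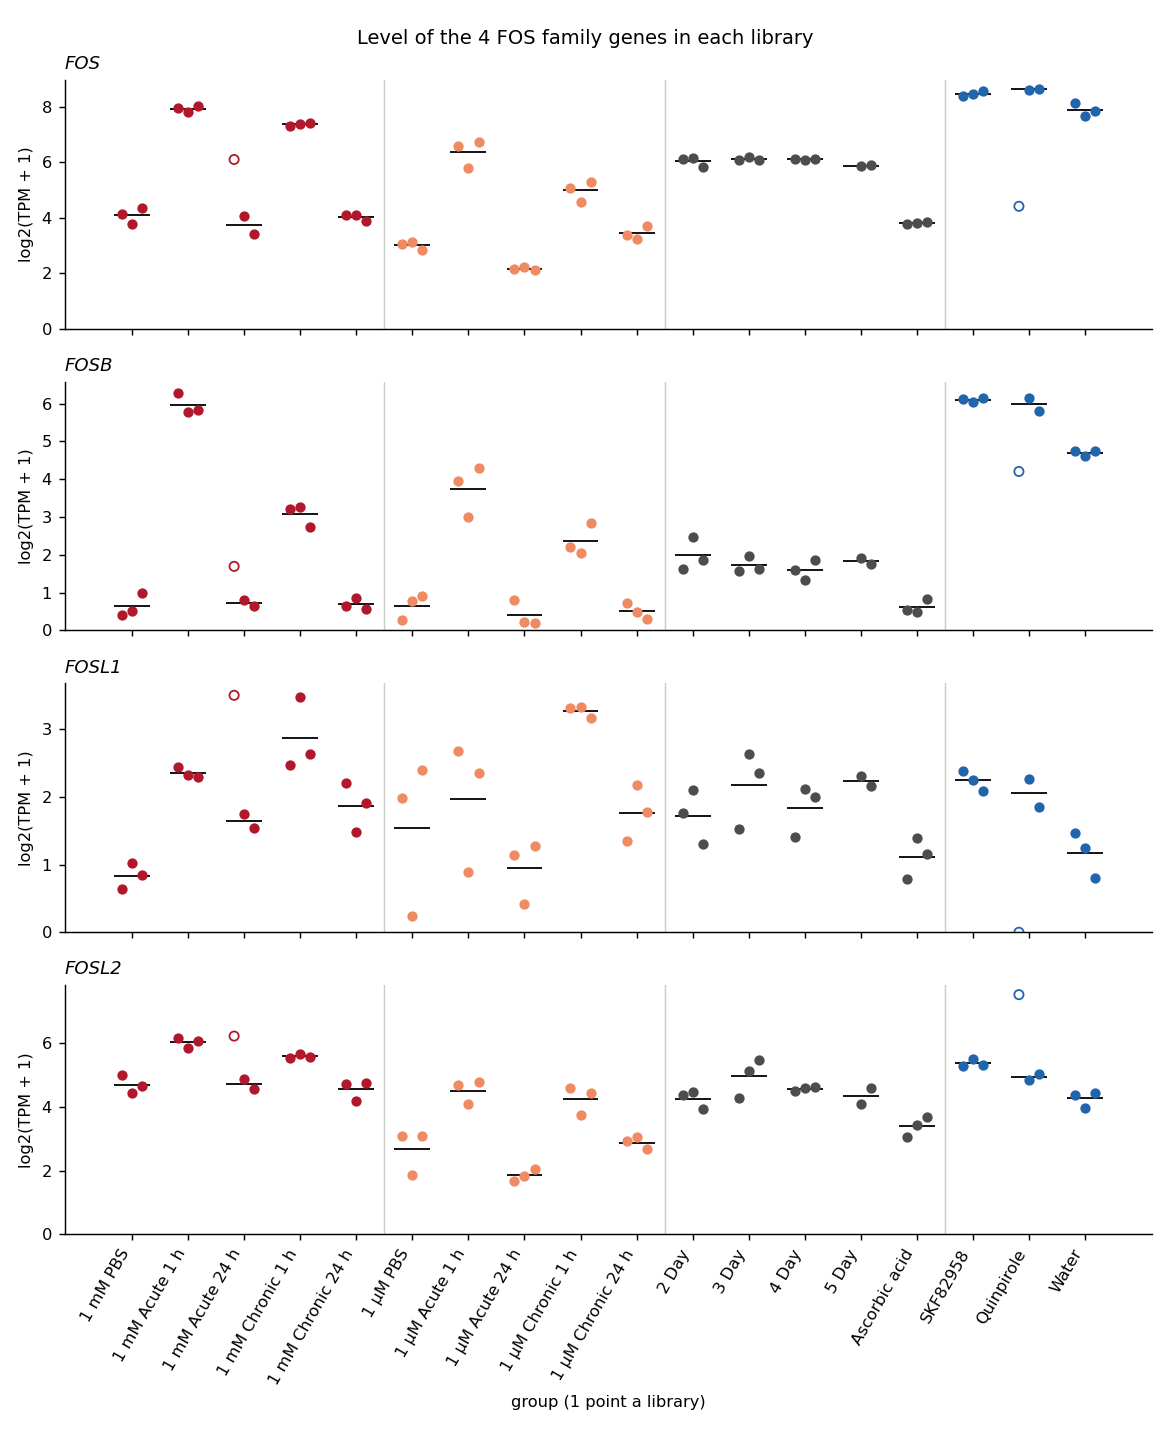
Level of each FOS family gene, as log2(TPM + 1), in each of the 53 libraries by group, coloured by experiment, with 1 point per library. Bars are group means without the 2 libraries that stood apart, which are open points. FOS spans 3.27 to 399 TPM and FOSB 0.139 to 76.5 TPM outside Quinpirole replicate 1, which lies far from the other Quinpirole libraries for all 4 genes.

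The question of the first comparison was which members respond within 1 h of a single dose of 1 mM dopamine. FOS, the founding member, was at 16.7, 12.6 and 19.1 TPM in PBS and at 246, 223 and 262 TPM at Acute 1 h. FOSB was at 0.332, 0.438 and 0.988 TPM in PBS and at 76.5, 54.0 and 55.4 TPM at Acute 1 h. For both, every treated library lay far above every control. FOSL2 was at 30.8, 20.9 and 24.4 TPM in PBS and at 71.3, 57.4 and 66.7 TPM at Acute 1 h, again without overlap but with a control level that already exceeded that of FOS. FOSL1 was at 0.558, 1.03 and 0.793 TPM in PBS, on 4 to 8 exon reads a library, and at 4.44, 4.00 and 3.88 TPM at Acute 1 h, on 25 to 33. 3 of the 4 members were DEGs, which needed an adjusted p under 0.05, a change of 1 or more on the log2 scale in either direction and 1 TPM or more in the mean of a group. By this rule 4.95% of the 26006 genes tested were called. The log2(fold change) was 4.29 for FOS (SE 0.49, adjusted p = 8.97e-05), 7.11 for FOSB (SE 0.43, adjusted p = 1.54e-06) and 1.77 for FOSL2 (SE 0.31, adjusted p = 0.000605). FOSL1 missed the threshold at 1.01 (SE 0.42, adjusted p = 0.0615) on all reads of the gene, and passed it on exon reads alone, with 2.41 (SE 0.61, adjusted p = 0.0181, beside 4.1% of all genes). It also passed on all reads without Acute 24 h replicate 1 (1.02, adjusted p = 0.0037, beside 5.22% of all genes) or Acute 24 h replicate 3 (adjusted p = 0.0355), which enter the fit through the shared estimate of spread. The median log2(fold change) was 3.03 over the members and -0.08 over all genes. On exon reads the changes of FOS (3.98), FOSB (6.77) and FOSL2 (1.43) were smaller, and each passed. The Acute libraries had a lower share of reads in introns than PBS, as given below, and its part was not tested. The summed astrocyte markers were lower at Acute 1 h (74.8 to 79.5 TPM) than in PBS (97.1 to 131 TPM), as were the striatal markers (122 to 127 against 138 to 157 TPM), and the part of such shifts in these results was not tested.

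After 5 daily doses of 1 mM, FOS and FOSB still rose 1 h after the last dose. FOS was at 157, 164 and 168 TPM at Chronic 1 h, a range that lay above PBS and below Acute 1 h without overlap with either. FOSB was at 8.20, 8.53 and 5.68 TPM, likewise between the 2 other groups but much nearer to PBS. FOSL1 was at 4.56, 10.1 and 5.23 TPM, above all PBS and all Acute 1 h libraries. FOSL2 was at 45.7, 49.5 and 47.0 TPM, between the other groups. 2 of 4 members were DEGs against PBS, beside 0.411% of all genes, with a log2(fold change) of 3.29 for FOS (adjusted p = 0.00519) and 3.62 for FOSB (adjusted p = 0.00138). The FOS call was lost without PBS replicate 1 (adjusted p = 0.0572) or PBS replicate 2 (adjusted p = 0.0696). FOSL2 did not pass, with 0.87 (SE 0.30, adjusted p = 0.22), and FOSL1 did not on all reads, with 1.45 (adjusted p = 0.12), but did on exon reads, with 2.99 (SE 0.59, adjusted p = 0.0208, beside 0.82% of all genes). Without Acute 24 h replicate 1, FOSL1 was called on all reads too (1.45, adjusted p = 0.00217, beside 1.01% of all genes), while FOSL2 had an adjusted p of 0.00539 at a log2(fold change) under 1.

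The direct comparison of Chronic 1 h with Acute 1 h gave 1 DEG among the members, FOSB, at -3.50 (adjusted p = 5.22e-05), beside 3.38% of all genes. FOS was at -0.999 (adjusted p = 0.0747) and passed without Acute 24 h replicate 1 (adjusted p = 5.8e-05, beside 3.67% of all genes) or Acute 24 h replicate 3 (adjusted p = 0.0173). FOSL2 was at -0.90 (adjusted p = 0.0278), past the p threshold and under the fold threshold, and FOSL1 at 0.44, in the opposite direction. On exon reads the fall was smaller for FOS (-0.68, adjusted p = 0.328) and FOSL2 (-0.57, adjusted p = 0.241), neither of which passed. FOSB passed there too (-3.16, adjusted p = 0.000156). The study describes such weakening by the ratio of the Acute to the Chronic log2(fold change). It was 1.30 for FOS, 1.97 for FOSB, 2.03 for FOSL2 and 0.70 for FOSL1. On exon reads the ratio was 1.21 for FOS, 1.87 for FOSB, 1.66 for FOSL2 and 0.81 for FOSL1. A ratio under 1 means a larger fitted change after repeated than after single dosing, and for FOSL1 the difference itself did not pass. Astrocyte markers summed to 166 to 179 TPM and oligodendrocyte markers to 125 to 132 TPM at Chronic 1 h, against 97.1 to 131 and 78.2 to 92.4 TPM in PBS. The part of these shifts in the Chronic results was not tested.

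**Figure D2:**
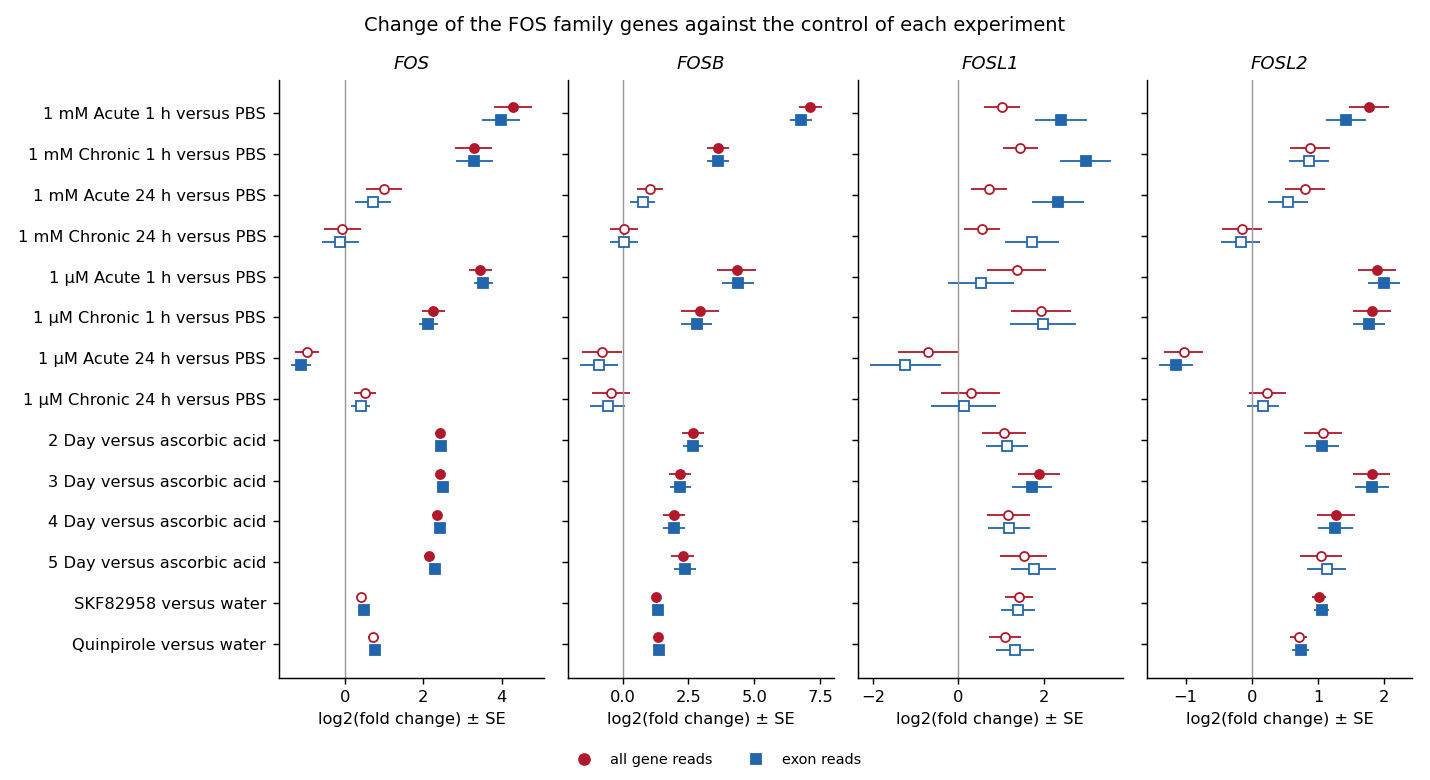
Fitted log2(fold change) of each member in each comparison with its control, with bars of 1 SE, circles for all reads of the gene, squares for exon reads and filled points for calls. The horizontal scales differ between panels, and the agonist points come from the fit without Quinpirole replicate 1. FOSB at 1 mM Acute 1 h is at 7.11 on all reads, beside 4.29 for FOS, 1.77 for FOSL2 and 1.01 for FOSL1.

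At 24 h after a single 1 mM dose, the 3 libraries differed widely. FOS was at 67.3, 15.7 and 9.72 TPM, FOSB at 2.23, 0.761 and 0.572 TPM, FOSL1 at 10.3, 2.35 and 1.89 TPM and FOSL2 at 74.1, 28.4 and 22.7 TPM. Replicate 1 was thus the highest of the group for every member, and its FOSL1 and FOSL2 levels exceeded those of all Acute 1 h libraries. None of the 4 members was a DEG against PBS by edgeR, beside 4.34% of all genes, with 3 members at an unadjusted p under 0.05 and 2 called by DESeq2 (FOS and FOSB). On exon reads, FOSL1 passed with 2.34 (adjusted p = 0.0246, beside 3.7% of all genes), and no member passed on exon reads without replicate 1. FOSL2 was at 0.81 (adjusted p = 0.0429), past the p threshold but under the fold threshold. Without replicate 1, the means were 12.7 ± 4.24 TPM for FOS, 0.667 ± 0.133 TPM for FOSB, 2.12 ± 0.323 TPM for FOSL1 and 25.6 ± 4.05 TPM for FOSL2 (SD, n = 2), and the log2(fold change) against PBS was -0.12, 0.41, -0.09 and 0.24, with no call beside 2.87% of all genes. Leaving out replicate 3 instead, which keeps replicate 1, made FOS (1.44, adjusted p = 0.00529), FOSB (adjusted p = 0.028) and FOSL1 (1.05, adjusted p = 0.0443) pass. FOS also passed without replicate 2 (1.40, adjusted p = 0.0376), FOSB without PBS replicate 3 (adjusted p = 0.0288), and FOSL2 without replicate 2, replicate 3 or PBS replicate 1 (1.05 to 1.10, adjusted p from 0.00485 to 0.0452).

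Between 1 h and 24 h after a single 1 mM dose, FOS fell by 3.28 (adjusted p = 0.00398) and FOSB fell by 6.06 on the log2 scale (adjusted p = 4.45e-06), 2 of 4 members beside 0.827% of all genes. FOSL1 was at -0.29 (adjusted p = 0.68) and FOSL2 at -0.96 (adjusted p = 0.0881). Without Acute 24 h replicate 1, FOSL1 (-1.11, adjusted p = 0.0415) and FOSL2 (-1.53, adjusted p = 0.000356) were called as well, beside 0.908% of all genes. At 24 h after the last of 5 doses, FOS was at 15.9, 16.2 and 13.5 TPM, FOSB at 0.572, 0.7997 and 0.493 TPM, FOSL1 at 3.62, 1.80 and 2.77 TPM and FOSL2 at 25.7, 17.3 and 26.03 TPM. FOS, FOSB and FOSL2 overlapped PBS, and FOSL1 lay above all 3 PBS libraries. None of the 4 passed against PBS by edgeR (0.0961% of all genes did), none had an unadjusted p under 0.05 and none was called by DESeq2. FOSL1 on exon reads did not pass with all libraries (adjusted p = 0.293). It passed without Acute 24 h replicate 1 (adjusted p = 0.0214, beside 1.12% of all genes), and no other omission was fitted on exon reads in this experiment. From 1 h to 24 h after the last dose, FOS (-3.35, adjusted p = 0.00979) and FOSB (-3.55, adjusted p = 0.00245) fell, beside 0.146% of all genes. The FOS call here was lost when any 1 Chronic 24 h library was left out (adjusted p from 0.0505 to 0.101). FOSL2 was at -1.02 (adjusted p = 0.397), called without Acute 24 h replicate 1 (adjusted p = 0.005, beside 0.477% of all genes).

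The lower dose was used to ask whether the responses depend on concentration. FOS was at 7.36, 7.73 and 6.19 TPM in the 1 µM PBS group and at 95.5, 54.9 and 104 TPM at Acute 1 h. FOSB was at 0.201, 0.719 and 0.870 TPM in PBS and at 14.6, 6.96 and 18.6 TPM at Acute 1 h. FOSL2 was at 7.43, 2.60 and 7.48 TPM in PBS and at 24.6, 16.01 and 26.3 TPM at Acute 1 h. For these 3 members the groups did not overlap. FOSL1 was at 2.96, 0.176 and 4.27 TPM in PBS, the middle value on 1 exon read, and at 5.40, 0.853 and 4.09 TPM at Acute 1 h, so that its groups overlapped. Replicate 2 had the lowest FOSL1 and FOSL2 level of its group in PBS and at Acute 1 h. 3 of 4 members were DEGs, beside 1.73% of the 22537 genes tested, with a log2(fold change) of 3.45 for FOS (adjusted p = 3.09e-05), 4.33 for FOSB (adjusted p = 0.00399) and 1.89 for FOSL2 (SE 0.29, adjusted p = 0.00183). FOSL1 was at 1.36 (adjusted p = 0.254). The median was 2.67 over the members and 0.08 over all genes, and the calls of FOS, FOSB and FOSL2 were kept when any 1 library was left out.

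At 1 µM Chronic 1 h, FOS was at 32.7, 22.8 and 38.2 TPM, FOSB at 3.60, 3.14 and 6.17 TPM, FOSL1 at 8.97, 9.00 and 7.98 TPM and FOSL2 at 23.5, 12.3 and 20.7 TPM. Each of these 12 values lay above all PBS values of its gene. FOSL1 was also above all 3 Acute 1 h libraries, whereas FOS and FOSB were below them. 3 of 4 members were DEGs against PBS, beside 0.945% of all genes, with 2.26 for FOS (adjusted p = 0.0011), 2.94 for FOSB (adjusted p = 0.0369) and 1.81 for FOSL2 (SE 0.29, adjusted p = 0.00474). The FOSB call did not survive the omission of 12 of the 15 libraries (adjusted p from 0.0503 to 0.143), and survived only that of Acute 1 h replicate 2, Acute 24 h replicate 1 or Chronic 1 h replicate 2. FOSL1 was at 1.94 (SE 0.71, adjusted p = 0.179). In the direct comparison with Acute 1 h, FOS was called at -1.19 (adjusted p = 0.0461), beside 0.328% of all genes, a call lost without 12 of the 15 libraries (adjusted p from 0.0747 to 0.207) and kept without PBS replicate 2, Acute 1 h replicate 2 or Chronic 1 h replicate 2. FOSB was at -1.39 (adjusted p = 0.387) and FOSL1 at 0.57. FOSL2 was at -0.09, with an interval from -0.63 to 0.45. The ratio of Acute to Chronic log2(fold change) was 1.53 for FOS, 1.47 for FOSB, 1.05 for FOSL2 (1.13 on exon reads) and 0.70 for FOSL1 (0.27 on exon reads). At Chronic 1 h the summed astrocyte markers were 51.4 to 55.8 TPM against 60.7 to 66.5 TPM in PBS, and the oligodendrocyte markers 19.95 to 23.2 against 23.99 to 26.4 TPM, and the part of these shifts was not tested.

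At 24 h the 1 µM groups were near or under their controls. FOS was at 3.45, 3.60 and 3.27 TPM and FOSL2 at 2.18, 2.54 and 3.12 TPM at Acute 24 h, with FOS below all PBS libraries and FOSL2 overlapping them. FOSB was at 0.743, 0.172 and 0.139 TPM and FOSL1 at 1.21, 0.338 and 1.43 TPM, both overlapping PBS. None of the 4 was a DEG by edgeR, beside 0.652% of all genes, with 2 at an unadjusted p under 0.05 and 1, FOSL2, called by DESeq2. On exon reads, FOS (-1.12, adjusted p = 0.0291) and FOSL2 (-1.15, adjusted p = 0.0263) passed as lower (1.18% of all genes did in either direction), against -0.97 (adjusted p = 0.119) and -1.03 (adjusted p = 0.0954) on all reads. At Chronic 24 h, FOS was at 9.24, 8.29 and 12.1 TPM, FOSB at 0.654, 0.399 and 0.226 TPM, FOSL1 at 1.54, 3.52 and 2.44 TPM and FOSL2 at 6.54, 7.28 and 5.37 TPM. FOS lay above all PBS libraries, and the other members overlapped them. None of the 4 passed by edgeR (0.0% of all genes did), none had an unadjusted p under 0.05 and none was called by DESeq2.

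From 1 h to 24 h after a single 1 µM dose, FOS (-4.42, adjusted p = 1.21e-05), FOSB (-5.10, adjusted p = 0.0119) and FOSL2 (-2.92, adjusted p = 0.000574) fell, and FOSL1 was at -2.08 (adjusted p = 0.276), beside 0.226% of all genes. The FOSB call was lost without Acute 1 h replicate 1, Acute 24 h replicate 2 or Acute 24 h replicate 3 (adjusted p from 0.0527 to 0.111), and FOSL1 was called without PBS replicate 2 (adjusted p = 0.0494). From 1 h to 24 h after the last of 5 doses, FOS (-1.74, adjusted p = 0.00632), FOSB (-3.38, adjusted p = 0.0324) and FOSL2 (-1.57, adjusted p = 0.0144) fell and FOSL1 was at -1.64 (adjusted p = 0.337), beside 0.506% of all genes. Of these, the call of FOS was lost without Chronic 24 h replicate 1 or 2 (adjusted p 0.0603 and 0.0694), and that of FOSB without PBS replicate 3, Acute 1 h replicate 1, Acute 24 h replicate 2 or 3, Chronic 1 h replicate 1 or 3 or any 1 of the Chronic 24 h libraries (0.0501 to 0.196). That of FOSL2 was lost without Chronic 1 h replicate 1 or 3 or any 1 of the Chronic 24 h libraries (0.0721 to 0.105).

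The doses were compared through the difference between their changes against their own PBS groups. At Acute 1 h, 1 of 4 members differed. The change in FOSB was larger at 1 mM than at 1 µM by 2.86 on the log2 scale (SE 0.81, adjusted p = 0.0128). Of 26135 genes, 27.9% were called in either direction, so a count of 1 of 4 does not set the family apart. The call was kept in 19 of 19 fits that left out 1 library (2.51 to 3.50). On exon reads it was 2.36 and did not pass (adjusted p = 0.0889, beside 2.01% of all genes called). The difference was 0.94 for FOS (adjusted p = 0.223), -0.22 for FOSL1 and -0.01 for FOSL2, with an interval from -0.85 to 0.82 for FOSL2. At Chronic 1 h, the differences were 1.03 for FOS (adjusted p = 0.528), 0.65 for FOSB, -0.45 for FOSL1 and -0.93 for FOSL2 (adjusted p = 0.462). None of the 4 passed by edgeR, beside 0.0957% of all genes, with 1 at an unadjusted p under 0.05 and 0 called by DESeq2. The doses were run as separate experiments with separate controls, so dose and experiment cannot be told apart.

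The make-up of the family shifted with these changes. In the 1 mM PBS group, FOSL2 made up 59.1% of the summed TPM of the 4 genes, FOS 37.6%, FOSL1 1.95% and FOSB 1.37%, of a sum of 34.9 to 48.4 TPM. At 1 mM Acute 1 h, FOS made up 65.1%, FOSL2 17.4%, FOSB 16.5% and FOSL1 1.10%, of 338 to 398 TPM. At 1 mM Chronic 1 h, the sum was 216 to 232 TPM, of which FOS held 72.6%, FOSL2 21.1%, FOSB 3.33% and FOSL1 2.93%. The share of FOSB was thus lower after repeated than after single dosing, and that of FOSL1 was higher. In the 1 µM experiment, FOS went from 47.6% in PBS to 68.7% at Acute 1 h and 49.4% at Chronic 1 h, and FOSL1 held 13.6%, 2.53% and 14.3% in the same groups. The Ascorbic acid cultures held 53.5% FOS and 39.5% FOSL2 of 21.2 to 27.4 TPM. The Water cultures held 84.1% FOS, 8.93% FOSB and 6.54% FOSL2 of 244 to 327 TPM. SKF82958 (75.9% FOS, 14.6% FOSB) and Quinpirole without replicate 1 (80.5% FOS, 12.8% FOSB) held a sum of 447 to 488 and 488 to 490 TPM. These shares are descriptions and were not tested.

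**Figure D3:**
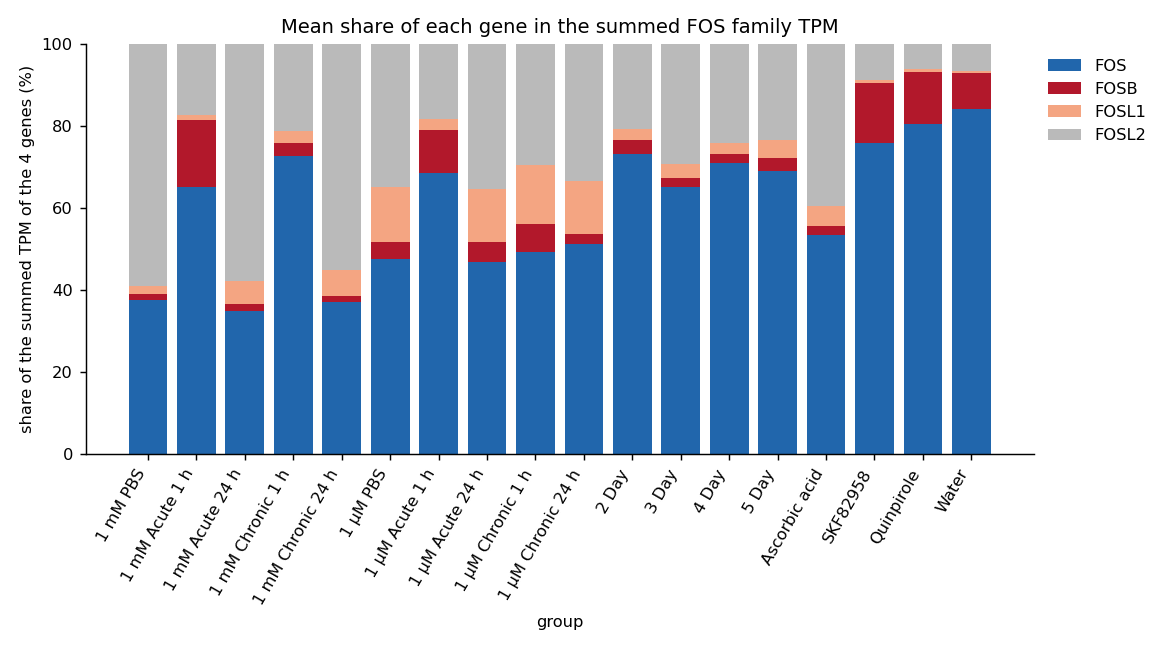
Mean share (percent) of FOS, FOSB, FOSL1 and FOSL2 in their summed TPM, as stacked bars for each group, with Quinpirole replicate 1 left out. FOSL2 holds 59.1% in 1 mM PBS and 17.4% at 1 mM Acute 1 h, and FOS holds 84.1% in Water.

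The files give reads in introns apart from reads in exons. Intron reads can come from transcripts not yet spliced, but their source was not tested here. In the 1 mM experiment, FOSL2, FOS and FOSL1 had enough of them to test, and no FOSL1 comparison passed on intron reads (0.53 at Acute 1 h, adjusted p = 0.216). For FOSL2, scaled to 1000000 reads on genes, intron reads were 1.89 ± 0.453 in 1 mM PBS, 6.41 ± 0.952 at Acute 1 h and 3.86 ± 0.426 at Chronic 1 h (SD, n = 3). In counts, these were 46, 45 and 29 reads in PBS, 137, 86 and 108 at Acute 1 h and 91, 77 and 76 at Chronic 1 h. The scaled values of the 3 groups did not overlap, whereas the counts of Acute 1 h and Chronic 1 h did. In a fit of intron reads alone, FOSL2 rose by 2.78 at Acute 1 h (SE 0.26, adjusted p = 7.49e-06, beside 11.2% of the genes tested), was lower at Chronic 1 h than at Acute 1 h (-1.78, adjusted p = 0.000333, beside 5.54%), and did not pass against PBS at Chronic 1 h (adjusted p = 0.0516, beside 1.13%). Against 1 h, the intron reads were lower at 24 h after both the single dose (-2.36, adjusted p = 0.000166, beside 2.24%) and the last of 5 doses (-1.52, adjusted p = 0.0166, beside 0.367%). The intron fits kept Acute 24 h replicate 1 and were not repeated without it. They were scaled to the intron reads of each library, not to all its reads on genes. Fitted changes can therefore differ in size and direction from those of the scaled values. FOS intron reads rose by 3.34 at Acute 1 h (adjusted p = 0.00226), were lower at 24 h than at 1 h after the single dose (-3.42, adjusted p = 0.0259), and were at 2.64 at Chronic 1 h against PBS (adjusted p = 0.0661). These FOS results rest on few reads, 1 to 8 a library in PBS, 11 to 23 at Acute 1 h and 0 to 5 at Acute 24 h. In 1 mM Acute 24 h replicate 1, FOSL2 had 23 intron reads of 1606, or 1.43%, beside 4.17% and 3.31% in the other libraries of the group. The share of all reads in introns was lower at 1 mM Acute 1 h (12.3% to 13.2%) than in PBS (19.5% to 21.8%). It was low at Acute 24 h too (12.5% to 15.9%), but not at Chronic 1 h (20.6% to 20.9%) or Chronic 24 h (18.9% to 22.4%). The Acute libraries thus differed from PBS and Chronic libraries at both times. The part of this difference in the 1 mM results was not tested.

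At 1 µM, scaled FOSL2 intron reads were 0.633 ± 0.558 in PBS, 3.16 ± 0.826 at Acute 1 h and 0.445 ± 0.290 at Chronic 1 h. Chronic 1 h thus held FOSL2 exon reads well above PBS without more intron reads, which gave -0.06 in the intron fit beside 1.81 on all reads. The intron counts behind these values were low, 4, 2 and 12 reads at Chronic 1 h. FOSB intron reads were 0 in all 3 1 mM PBS libraries, 39 in the 3 Acute 1 h libraries together and 2 in the 3 Chronic 1 h libraries together. Scaled FOS intron reads were 0.173 in 1 mM PBS, 0.901 at Acute 1 h and 1.15 at Chronic 1 h, while the fit put Chronic 1 h at -0.70 against Acute 1 h (adjusted p = 0.375). The FOSB intron reads were too few to test. FOSL1 had a pooled intron share of 38.3% over the 52 libraries, against 5.65% for FOSL2, 2.25% for FOSB and 1.20% for FOS. Its share was 80.2% in 1 mM PBS, 33.9% at Acute 1 h and 41.8% at Chronic 1 h, so its reads in that control group were mostly intronic, and its fitted change at 1 mM was larger on exon reads. In other controls the share was 21.7% (1 µM PBS), 27.3% (Ascorbic acid) and 47.8% (Water), and on exon reads the change was smaller at 1 µM Acute 1 h (0.53 against 1.36). In 1 µM Acute 1 h replicate 2, 37 of 41 FOSL1 reads lay in introns.

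**Figure D4:**
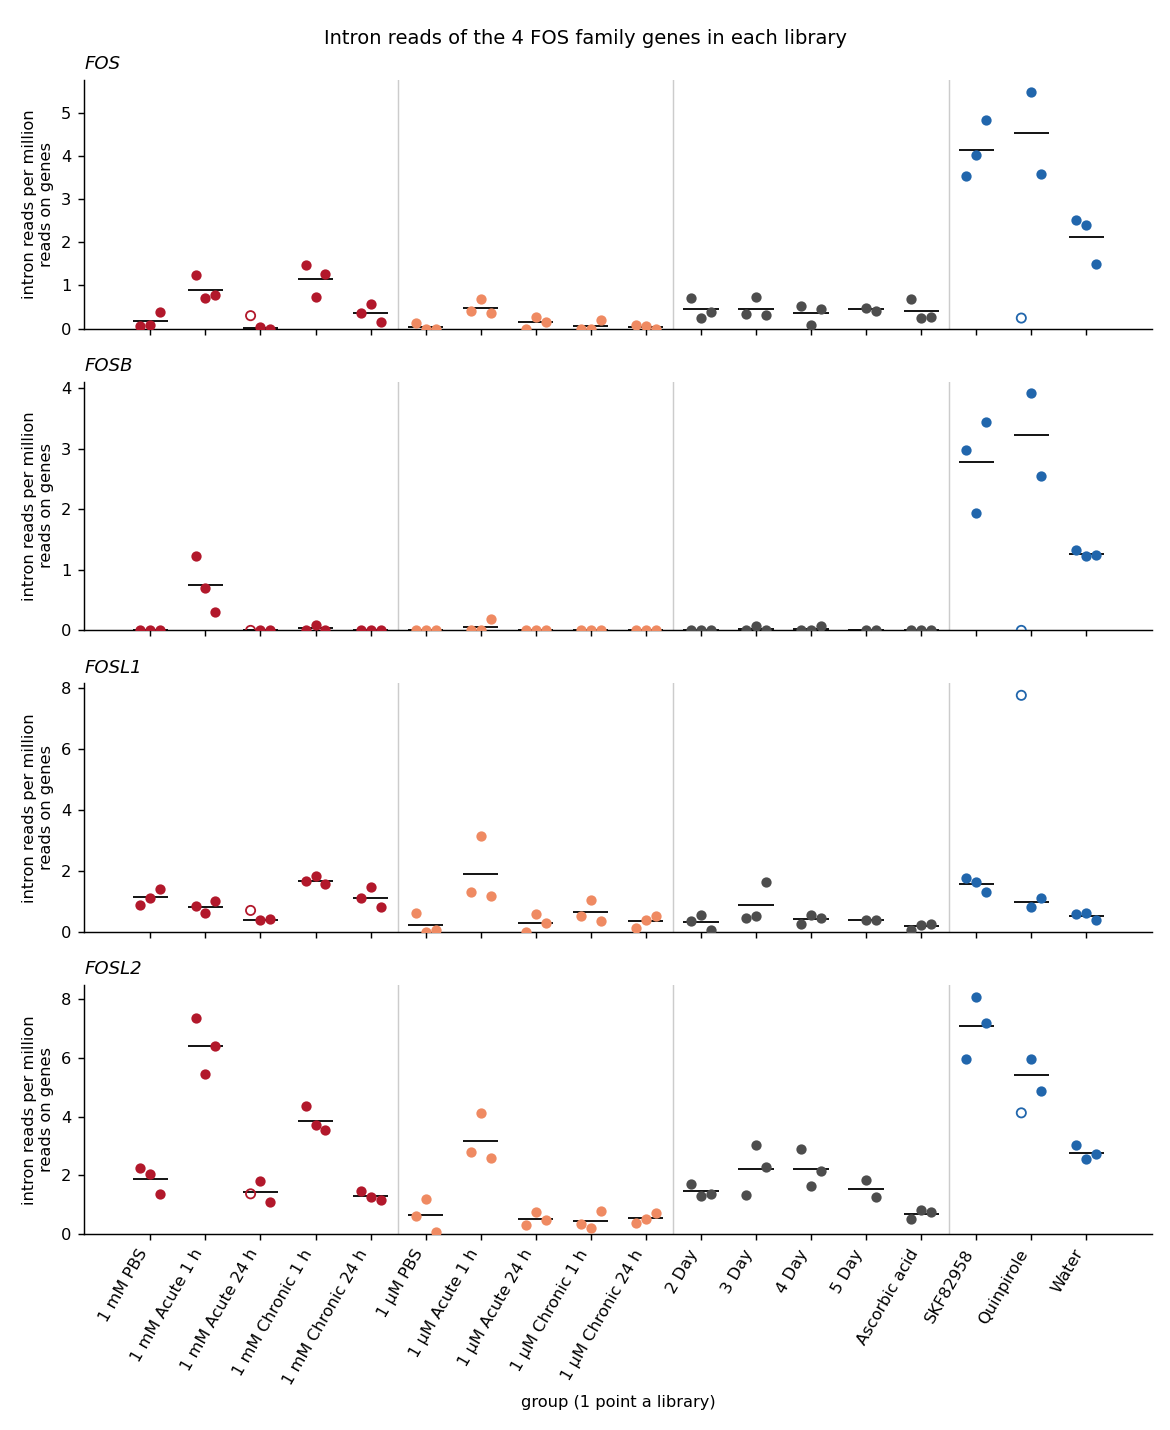
Intron reads, scaled to 1000000 reads on genes, for each member by group, 1 point per library, with bars as group means and the 2 libraries that stood apart as open points. FOSL2 averages 6.41 at 1 mM Acute 1 h and 3.86 at 1 mM Chronic 1 h, against 1.89 in 1 mM PBS.

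The time course asked how the response at 1 h changes with the number of daily doses. FOS was at 12.6, 12.8 and 13.4 TPM in the Ascorbic acid group, at 68.0, 70.4 and 55.2 TPM at 2 Day, 66.9, 71.6 and 67.0 TPM at 3 Day, 68.8, 66.7 and 67.6 TPM at 4 Day and 57.0 and 58.1 TPM at 5 Day. It rose on every day, with a log2(fold change) of 2.42, 2.44, 2.35 and 2.15 (SE 0.12 to 0.13, adjusted p = 2.21e-07, 1.98e-07, 3.37e-07 and 3.18e-06). The linear trend from 2 to 5 Day was -0.09 per day for FOS (SE 0.04, adjusted p = 0.558). FOSB was at 0.445, 0.400 and 0.777 TPM in Ascorbic acid, at 2.10, 4.49 and 2.64 TPM at 2 Day, 1.97, 2.92 and 2.10 TPM at 3 Day, 2.03, 1.501 and 2.64 TPM at 4 Day and 2.76 and 2.37 TPM at 5 Day. All FOSB values of dosed cultures lay above the controls, and each day passed, at 2.67 (adjusted p = 0.00476), 2.19 (0.0115), 1.94 (0.0304) and 2.28 (0.0349).

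FOSL2 was at 7.40, 9.85 and 11.96 TPM in Ascorbic acid, at 20.0, 21.1 and 14.4 TPM at 2 Day, 18.3, 34.2 and 43.9 TPM at 3 Day, 21.6, 23.5 and 23.6 TPM at 4 Day and 16.2 and 23.1 TPM at 5 Day. Every dosed library exceeded every control, and the 3 Day group was the widest. FOSL2 passed at 3 Day (1.81, adjusted p = 0.004) and 4 Day (1.27, adjusted p = 0.0343), and not at 2 Day (1.07, adjusted p = 0.055) or 5 Day (1.05, adjusted p = 0.0998). FOSL1 was at 0.727, 1.62 and 1.22 TPM in Ascorbic acid, at 2.39, 3.27 and 1.46 TPM at 2 Day, 1.88, 5.18 and 4.11 TPM at 3 Day, 1.65, 3.31 and 3.00 TPM at 4 Day and 3.96 and 3.48 TPM at 5 Day. Its 2 Day group overlapped the controls, the later groups did not, and it passed at 3 Day alone (1.89, adjusted p = 0.0451), against 1.07, 1.17 and 1.53 on the other days.

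In all, 2, 4, 3 and 2 members passed at 2, 3, 4 and 5 Day, beside 3.35%, 4.95%, 2.13% and 1.02% of the 21690 genes tested. The calls of FOS, the 2 Day call of FOSB and the 3 Day call of FOSL2 were kept when any 1 library was left out. Others were not. The FOSB call was lost without 3 Day replicate 2, Ascorbic acid replicate 1 or Ascorbic acid replicate 2 at 3 Day (adjusted p from 0.0591 to 0.0706), without 4 Day replicate 1 or 3 or Ascorbic acid replicate 1 or 2 at 4 Day (0.0785 to 0.149), and without 3 Day replicate 3, 4 Day replicate 1, 5 Day replicate 2 or any 1 of the Ascorbic acid libraries at 5 Day (0.0508 to 0.151). The FOSL1 call at 3 Day was lost without 2 Day replicate 1, 3 Day replicate 2 or 3, or any 1 of the 4 Day or Ascorbic acid libraries (0.0527 to 0.187). The FOSL2 call at 4 Day was lost without any 1 of the 4 Day or Ascorbic acid libraries (0.0568 to 0.151), and FOSL2 was called at 5 Day without 3 Day replicate 1 (adjusted p = 0.0208). At 2 Day it was called without 3 Day replicate 1 or 3 or either 5 Day library (0.0052 to 0.0462). The trend per day was -0.14 for FOSB, 0.07 for FOSL1 and -0.06 for FOSL2. None of the 4 members had a trend that passed by edgeR (0.00461% of all genes did), with 1 at an unadjusted p under 0.05 and 0 called by DESeq2. Summed striatal markers were 137 to 149 TPM in Ascorbic acid and 89.1 to 136 TPM over the 4 dosed groups, and progenitor markers 1292 to 1362 and 934 to 1265 TPM. Summed fibroblast markers were 180 to 236 TPM in Ascorbic acid and 225 to 340, 270 to 464, 335 to 368 and 259 to 419 TPM at 2, 3, 4 and 5 Day, and the part of these shifts in the higher levels was not tested. The 5 Day and 1 mM Chronic 1 h groups both received 5 doses of 1 mM but belong to different experiments, and their FOS levels were 57.0 and 58.1 TPM and 157 to 168 TPM.

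The agonist experiment was used here to follow these genes under agonists of D1-like and D2-like receptors. The study itself used Quinpirole to examine crosstalk of D2-like receptors with the adenosine receptor ADORA2A. It reports genes changed by Quinpirole against water, in a test of its own. Its Water controls were already high, with FOS at 280, 204 and 230 TPM, FOSB at 25.7, 23.5 and 25.8 TPM, FOSL1 at 1.76, 1.37 and 0.739 TPM and FOSL2 at 20.0, 14.5 and 20.9 TPM. The FOS range in Water overlapped that of 1 mM Acute 1 h (223 to 262 TPM), and the FOSB range lay far above all PBS and Ascorbic acid libraries (0.201 to 0.988 TPM). FOSB intron reads were 20, 16 and 16 in Water and 37, 26 and 44 with SKF82958. The vehicle and the experiment cannot be told apart in this difference between controls.

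With SKF82958, FOS was at 337, 347 and 375 TPM, FOSB at 68.0, 64.5 and 70.4 TPM, FOSL1 at 4.23, 3.76 and 3.26 TPM and FOSL2 at 37.7, 44.6 and 39.3 TPM. All of these values lay above all Water libraries. With Quinpirole, replicates 2 and 3 were at 388 and 399 TPM for FOS, 70.4 and 54.5 TPM for FOSB, 3.82 and 2.59 TPM for FOSL1 and 27.8 and 31.8 TPM for FOSL2, again above Water. Replicate 1 was at 20.2, 17.4, 0 and 184 TPM on the few reads given above. With all 9 libraries in the fit, none of the 4 members passed for SKF82958, for Quinpirole or between them by edgeR, beside 0.0% of the 20475 genes tested in each comparison, with 1, 1 and 0 members at an unadjusted p under 0.05 and 0 called by DESeq2.

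Without Quinpirole replicate 1, 2 of 4 members rose with SKF82958, FOSB by 1.28 (SE 0.15, adjusted p = 0.00325) and FOSL2 by 1.01 (SE 0.11, adjusted p = 0.00212), beside 0.382% of all genes. FOS was at 0.42 (SE 0.12, adjusted p = 0.345) and FOSL1 at 1.42 (SE 0.33, adjusted p = 0.174). For Quinpirole, on 2 libraries, FOSB rose by 1.34 (SE 0.17, adjusted p = 0.00913), beside 0.0968% of all genes, and FOS was at 0.73 (adjusted p = 0.114), FOSL1 at 1.10 (adjusted p = 0.649) and FOSL2 at 0.71 (adjusted p = 0.0991). On exon reads alone, FOS, FOSB and FOSL2 passed for both agonists, with 0.48, 1.35 and 1.05 for SKF82958 (adjusted p = 0.0477, 3.67e-05 and 9.91e-05) and 0.78, 1.39 and 0.74 for Quinpirole (0.00474, 0.000156 and 0.0218), beside 0.624% and 0.184% of all genes. The 2 compounds were compared as 1 pair at the same dose, and the labels give no time for them. They did not differ past the threshold for any member, with an adjusted p of 1.0 for each and 0.00484% of all genes called. The difference of SKF82958 from Quinpirole was -0.31 for FOS (interval -0.57 to -0.05), -0.07 for FOSB (-0.39 to 0.25), 0.32 for FOSL1 (-0.37 to 1.01) and 0.31 for FOSL2 (0.07 to 0.55). These intervals are not adjusted for the number of genes and are too narrow for so few libraries, so whether they exclude 0 was not relied on. Astrocyte markers summed to 151 to 160 TPM with SKF82958 and 130 to 134 TPM in Water, and fibroblast markers to 255 to 332 and 209 to 220 TPM, and their part in these results was not tested.

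Some of the partners that can pair with FOS proteins rose as well. Of 18 genes of the JUN, ATF, BATF, JDP2 and MAF groups tested at 1 mM Acute 1 h, 4 rose and 0 fell. By the same rule 4.95% of all genes were called. The median log2(fold change) was 0.63 over the 18 partners against -0.08 over all genes. JUNB, the JUN member with weaker activation of its own, rose by 3.35 (adjusted p = 0.000127) and ATF3, a stress-induced repressor, by 3.43 (adjusted p = 9.78e-05), followed by MAF (1.54) and MAFF (1.29). At 1 mM Chronic 1 h, 2 of 18 rose, JUNB (2.66, adjusted p = 0.00733) and ATF3 (2.08, adjusted p = 0.0214), beside 0.411% of all genes. In the direct comparison of Chronic with Acute 1 h, 2 of 18 were lower, ATF3 (-1.35) and MAF (-1.04), beside 3.38% of all genes. At 1 µM, the partners that rose at Acute 1 h included JUNB (2.98, adjusted p = 0.0105) and JDP2 (1.01), beside 1.73% of all genes called. Of 17 partners, 1 rose at Chronic 1 h, JUNB (2.43, adjusted p = 0.0382), beside 0.945% of all genes. In the time course, JUNB (1.45 to 1.61), MAFF (1.36 to 1.47) and ATF3 (1.06 to 1.34) rose on all 4 days of 16 partners tested. Of all genes, 3.35%, 4.95%, 2.13% and 1.02% were called at 2, 3, 4 and 5 Day. JUNB was thus the partner called in each of the 8 comparisons of a 1 h dopamine group with its control.

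Of 21 upstream genes, the kinases and transcription factors known to switch on FOS, 1 was called at 1 mM Acute 1 h. This share was close to the 4.95% of all genes called there. The called gene was SRF, serum response factor, which binds the FOS promoter and is itself an early gene, at 1.57 (adjusted p = 6.23e-05). By edgeR, 0 of 21 were called at 1 mM Chronic 1 h (4 at an unadjusted p under 0.05), at 1 µM Acute 1 h (2) or at 1 µM Chronic 1 h (3). Of all genes, 0.411%, 1.73% and 0.945% were called in these comparisons. At 3 Day, ELK3 (0.64), STAT3 (0.60), RPS6KA2 (0.40) and SRF (0.34) were higher and ATF1 (-0.70) lower, beside 4.95% of all genes called. Of 18 genes known as AP-1 targets tested at 1 mM Acute 1 h, 2 rose and 3 fell, beside 4.95% of all genes called. PLAU, urokinase (2.30, adjusted p = 0.00105), and CCND1, cyclin D1 (1.40, adjusted p = 0.000347), rose. The collagenase MMP1 (-2.54), the stromelysin MMP3 (-3.06) and the AMPA receptor subunit GRIA2 (-1.17) were lower. At 1 mM Acute 24 h, of 18 targets, 1 was higher, PLAU (1.60). There 3 were lower, MMP1 (-1.91), MMP3 (-2.79) and GRIA2 (-1.20), beside 4.34% of all genes called. These differences from PBS were thus not particular to 1 h. The study names MMP1 among genes raised only by 1 mM dopamine, whereas it was lower in both comparisons here, on all reads of the gene. In the time course, MMP1 was instead higher on all 4 days (4.33, 5.17, 4.66 and 4.53) and MMP3 at 2, 3 and 4 Day (3.15, 4.44 and 3.67), of 17 targets tested, beside the higher fibroblast marker sums given above. At 1 mM Chronic 1 h, 0 of 18 targets were called by edgeR (4 at an unadjusted p under 0.05), beside 0.411% of all genes. The only target called at 1 µM Acute 1 h was VIM, vimentin, at -1.11 of 15 tested, beside 1.73% of all genes. The lists were chosen with results of these data known, and their counts describe these comparisons.

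The genes whose levels followed each member most closely were sought by Pearson correlation of log2(TPM + 1), less the control mean of each experiment, over the 52 libraries other than Quinpirole replicate 1, among 16605 genes. FOS was closest to EGR2 (r = 0.950), EGR1 (0.949) and EGR3 (0.929), zinc finger immediate early genes. FOSB was closest to EGR3 (0.948), EGR4 (0.915) and EGR2 (0.862). FOSL2 was closest to CSRNP1 (0.884), JUNB (0.835) and NEDD9 (0.833), and FOSL1 to PPP1R15A, a regulator of the stress response of translation (0.815), CSF1 (0.757) and MYADM (0.754). Among the members, FOS correlated with FOSB at 0.860, with FOSL2 at 0.818 and with FOSL1 at 0.584. FOSL1 was thus the member least like FOS over these 52 libraries. They include 1 mM Acute 24 h replicate 1, and likeness was not repeated without it. With all 53 libraries and 19098 genes, the first neighbours of FOS (EGR1, 0.949), FOSB (EGR3, 0.942) and FOSL1 (PPP1R15A, 0.831) were of the same kind, while that of FOSL2 became ELMSAN1 (0.777) and its correlation with FOS was 0.506. FOSL1 then correlated with FOS at 0.632, so that FOSL2 was the member least like FOS. The libraries share groups and experiments, so these values describe likeness across this set of groups.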

How the data were processed

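Illumina libraries were prepared from total RNA and sequenced in pairs. The strand of counting was not given in the sources used here. The authors mapped paired reads and counted them per gene with CLC Genomics Workbench (build hg38 per the submitters' processing notes). The deposited table of each library lists read counts per gene (total gene reads, exon reads and intron reads) and TPM as the authors calculated it. Total gene read counts entered the tests, and TPM and intron read counts describe levels. Depth is given in the report, and floors and low counts cover counting error only.

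Groups followed the sample labels. Each experiment was fitted separately with all its groups by edgeR 4.0.16 (TMM, quasi-likelihood test, genes filtered by filterByExpr) in R 4.3.3, with Benjamini-Hochberg adjustment over all genes tested. DEGs of the dose experiments had an adjusted p under 0.05, a log2(fold change) of 1 or more in size and a group mean of 1 TPM or more. Other calls had an adjusted p under 0.05. The doses were compared by an interaction term. Intervals were set from the standard errors with the 95% multiplier of the normal distribution. This makes no allowance for the small number of libraries, so they are narrower than true 95% intervals. DESeq2 1.42.0, other filters and scalings, exon or intron reads alone, a replicate block and omission of each library were alternatives, of which the fits combining exon reads with the omission of a library, and those without Quinpirole replicate 1 (likeness and order) or without both libraries that stood apart (order), were chosen after seeing the data. The scripts were checked on simulated data. Tables and figures used Python 3.11.15, pandas 2.3.3, numpy 2.4.6 and matplotlib 3.10.9. Named genes were the 4 members, the called genes of the partner, upstream and target lists, and the 3 genes most correlated with each member (log2(TPM + 1) less the control mean of each experiment, mean of at least 1 TPM). The members and lists were chosen with earlier results of these data known. No 2 libraries held identical values, and 1 labelled sample, 5 Day replicate 1, was not analysed here. The values of 1 partner gene are not reported here.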

Additional observations from a re-analysis of the deposited data

Results flagged for a closer look

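The change in FOSB 1 h after a single dose differed between the doses of dopamine, by 2.86 on the log2 scale (1 mM over 1 µM), in a direct test of the difference with edgeR (adjusted p = 0.0128). This was 1 of 4 members, close to the 27.9% of all genes called, so the count does not set the family apart. On exon reads the difference of 2.36 did not pass (adjusted p = 0.0889). All 3 treated libraries lay above all 3 controls at both doses.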

How the results depend on the processing

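Counts here are of the 4 members called. With exon reads alone, 1 was called at 1 mM Acute 24 h, 2 at 1 µM Acute 24 h and 0 for the dose difference at Acute 1 h, and intron reads alone gave 0 for the latter. Intron reads alone, which tested few members, gave 0 at 1 mM Chronic 1 h, at 1 µM Acute 1 h and Chronic 1 h, in the 3 other 1 µM comparisons that had calls, and at 2 Day and 5 Day, and 1 at 3 Day, at 4 Day and at 1 mM Chronic 24 h versus Chronic 1 h. They turned FOSL2 to -0.0565 at 1 µM Chronic 1 h versus PBS and to 0.12 for 1 µM Chronic 24 h versus Chronic 1 h. The DESeq2 Wald test called 2 at 1 mM Acute 24 h and 1 at 1 µM Acute 24 h. Fits of only the groups compared called 1 for 1 mM Acute 24 h versus Acute 1 h, 1 at 1 µM Acute 1 h, 1 at 1 µM Chronic 1 h, 0 for 1 µM Chronic 1 h versus Acute 1 h, 1 at 5 Day and 2 for SKF82958. No filter on low counts called 0 for 1 µM Chronic 1 h versus Acute 1 h. Exon reads without Acute 24 h replicate 1 called 1 at 1 mM Chronic 24 h and 4 for Chronic 24 h versus Chronic 1 h, and without Quinpirole replicate 1 called 3 for each agonist. The cause was not tested. DESeq2 size factors changed no call of 96 member results.

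Same-numbered libraries did not all deviate together (correlations from -0.59 to 0.73, with a mean of -0.0045 at 1 mM, 0.079 at 1 µM, -0.049 in the time course and -0.088 for the agonists), so they share only a number. A replicate block kept 91 of 96 member results, lost 4, gained 1 (FOSL2 at 2 Day), and called 0 for 1 µM Chronic 1 h versus Acute 1 h and 1 at 5 Day.

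Leaving out 1 library called 3 to 4 at 1 mM Acute 1 h, 0 to 4 at Acute 24 h, 1 to 3 at Chronic 1 h, 1 to 2 for Chronic versus Acute 1 h, 2 to 4 for Acute 24 h versus Acute 1 h and 1 to 3 for Chronic 24 h versus Chronic 1 h. At 1 µM it called 2 to 3 at Chronic 1 h, 0 to 1 for Chronic versus Acute 1 h, 2 to 4 for Acute 24 h versus Acute 1 h and 0 to 3 for Chronic 24 h versus Chronic 1 h. It called 2 to 3, 2 to 4, 1 to 3 and 1 to 3 at 2, 3, 4 and 5 Day, 0 to 2 for SKF82958 and 0 to 1 for Quinpirole. FOSB in PBS and Ascorbic acid and FOSL1 in all controls rest on few reads, so small changes in them were not detectable at this depth.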
